A study of Mus musculus with 4 samples.

Results

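Sox5 and Sox6 are the 2 SoxD transcription factors that work beside Sox9 in cartilage, and the data described here are the open-chromatin peaks in or within 100 kb of these genes in mouse chondrocytes. Every peak of the 4 libraries that touched a gene or its 100 kb flanks was taken, which gave 469 of the 455071 peaks in all. Overlapping peaks of different libraries were merged (overlap of at least 1 bp) into 101 sites at Sox5 and 108 sites at Sox6, out of 172311 merged sites. ATAC-seq uses the Tn5 transposase to tag open DNA, and the MACS2 program then marks as a peak each stretch where the sequenced fragments pile up above the local background. The cells were knee cartilage chondrocytes of C57BL/6 mice at postnatal day 0 to 4, kept in DMEM/F12 with 10% fetal bovine serum. The P0 group (passage 0, 2 libraries) consisted of primary cells held in culture for under 24 h, and the P8 group (passage 8, 2 libraries) of cells passaged serially, each time after their number had doubled, as a model of dedifferentiation. No allele, drug or other treatment set the groups apart, and passage and time in culture cannot be told apart. The sources used here do not say whether the libraries of a passage came from separate mice or cultures, so that p-values measure the spread between libraries, which may be technical.

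Sox5 and Sox6 are HMG-box proteins that bind DNA as dimers and carry no activation domain of their own. In developing cartilage they act together with Sox9 on genes of the cartilage matrix, such as Col2a1 and Acan, and they are largely redundant with each other. Both genes are long, with transcripts that start at several places, and chondrocytes use a long form of Sox5. Sox5 spans chr6:143828425-144782287 (GRCm38, minus strand, 953863 bp) and Sox6 spans chr7:115470872-116040776 (minus strand, 569905 bp), so that the 5′ end of each gene is the end with the higher coordinate. The flanks of Sox5 held no other protein-coding gene, and those of Sox6 held 1110004F10Rik and part of Plekha7. The annotation used gave gene limits without exons, so sites inside a gene are called gene-body sites, and introns and exons were not separated.

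The RefSeq table of start windows (GRCm38.p6, 250 bases before to 50 bases after a start) held 1 window for Sox5 and 6 for Sox6. Of these, 4 are shown because they cover the different outcomes in the data. Sox6 start 5 (chr7:115824661-115824960) lay wholly inside a merged site held by all 4 libraries. Sox6 start 2 (chr7:116030998-116031297) was touched by a P0 peak only. Sox6 start 1 (chr7:116038695-116038994) lay next to the gene's 5′ end with no peak in the window itself, and the Sox5 window (chr6:143947057-143947356), 835 kb into the gene, held no peak in any library. All are written 5′ to 3′ on the strand of the gene, and capitals mark the SOX core, searched on both strands as ACAATG, or as ACAAAG, or else as ACAATA.
Sox6 start 5: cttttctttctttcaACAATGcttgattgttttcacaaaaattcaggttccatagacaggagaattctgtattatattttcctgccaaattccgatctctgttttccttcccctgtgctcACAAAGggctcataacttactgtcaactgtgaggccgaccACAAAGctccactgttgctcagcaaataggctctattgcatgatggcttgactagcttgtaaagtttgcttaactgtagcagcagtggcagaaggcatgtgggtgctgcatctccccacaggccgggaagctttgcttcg
Sox6 start 2: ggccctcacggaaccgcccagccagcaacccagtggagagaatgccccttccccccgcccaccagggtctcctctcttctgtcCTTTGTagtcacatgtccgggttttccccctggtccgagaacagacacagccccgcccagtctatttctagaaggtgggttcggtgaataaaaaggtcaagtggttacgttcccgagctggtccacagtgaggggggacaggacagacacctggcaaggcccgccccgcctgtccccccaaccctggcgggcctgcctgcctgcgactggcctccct
Sox6 start 1: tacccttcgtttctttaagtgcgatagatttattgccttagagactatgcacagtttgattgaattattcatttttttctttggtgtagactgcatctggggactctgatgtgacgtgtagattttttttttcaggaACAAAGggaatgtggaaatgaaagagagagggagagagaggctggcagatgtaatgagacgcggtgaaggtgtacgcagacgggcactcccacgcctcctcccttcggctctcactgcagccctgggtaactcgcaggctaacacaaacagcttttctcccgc
Sox5 start 1: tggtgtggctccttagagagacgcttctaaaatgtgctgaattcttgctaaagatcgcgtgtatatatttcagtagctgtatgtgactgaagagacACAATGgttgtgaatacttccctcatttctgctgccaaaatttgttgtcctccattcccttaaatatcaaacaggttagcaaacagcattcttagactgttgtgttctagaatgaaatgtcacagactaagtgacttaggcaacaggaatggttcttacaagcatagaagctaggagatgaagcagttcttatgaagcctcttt
The SOX core was present in the Sox5 window and in 6 of 6 Sox6 windows, against 34.1% of 32851 start windows of all genes. These windows had from 36.7 to 47% G and C, apart from Sox6 start 2 at 63.3%, against a mean of 53.8% over all windows. The SOX core is mostly A and T, and the part of base content in these matches was not tested. Sox6 start 5 held 3 matches, at positions 16, 121 and 161 counted from its 5′ base. The E-box (CANNTG) was found in 6 of 6 Sox6 windows and not in that of Sox5 (72.3% of all windows). The GC box (GGGCGG) was found 4 times in Sox6 start 2 and in no other window of either gene (35.7% of all). TATAAA was found in 2 Sox6 windows that are not shown, starts 3 and 6 (13.6% of all), and the AP-1 motif (TGANTCA) in none of the windows (7.81% of all). No match overlapped a match of another motif. A match describes letters only and is no evidence of binding.

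The libraries differed in depth. The peak lists do not number the libraries, which are called A and B within a passage. The order of values is A, then B throughout. P0 totals were 145703 and 119974 peaks, and P8 totals were 89610 and 99784. The lowest local background of a library was taken as its genome-wide background, which measures depth. It stood at 194 and 162 tags per 10 kb for P0 against 140 and 134 for P8. Depth therefore moved with passage, and its part in the results below was not tested beyond the values at matched background given with them, in which each library was rescaled to the lowest background of the 4 and only peaks that still passed were kept. The labelled cell type was checked through peaks within 1 kb of a marker gene's end. Chondrocyte markers had such a peak for 6 of 6 genes in each P0 library and 5 of 6 in each P8 library, with Matn1 lacking one at P8. Fibroblast markers had one for 5 of 5 genes at P0 and 4 of 5 at P8, blood and macrophage markers for 1 of 3 at P0 and 0 of 3 at P8, and endothelial markers for 1 of 3 in each library. Over all 21900 protein-coding genes, 58.1% had such a peak in all 4 libraries. Since fibroblast markers scored close to chondrocyte markers, the check does not separate these cell types. Peak lists hold no RNA level, and a site open in fewer cells cannot be told apart from a site less open in each cell.

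Both genes held more peaks at P0 than at P8. At Sox5, the P0 libraries held 83 and 61 peaks, against 33 and 39 for P8. Both P0 libraries lay above both P8 libraries, with means of 72.0 ± 15.6 (SD, n = 2) and 36.0 ± 4.24 (SD, n = 2), a ratio of 2.00. At Sox6, the counts were 96 and 68 peaks at P0 and 46 and 43 at P8, with means of 82.0 ± 19.8 and 44.5 ± 2.12 (SD, n = 2 each) and a ratio of 1.84. The groups did not overlap at either gene, and an exact two-sided permutation test gave p = 0.333, the smallest p that 2 libraries against 2 allow, so that this test could not pass 0.05 here. Over the whole genome the same ratio was 1.40. Set against the total of each library, Sox5 held 5.70 and 5.08 of every 10000 peaks at P0 and 3.68 and 3.91 at P8, a ratio of 1.42 ± 0.13 (SD). Sox6 held 6.59 and 5.67 of every 10000 peaks at P0 and 5.13 and 4.31 at P8, a ratio of 1.30 ± 0.21. The share was higher in both P0 libraries at both genes (exact permutation test, p = 0.333). When each library was cut to its 89610 strongest peaks the ratio of peak number fell to 1.17 at Sox5 and 1.23 at Sox6, and among peaks above the median −log10 q of their library the share at Sox5 turned to a ratio of 0.935, with that at Sox6 at 1.37. The header of the −log10 q column was lost in the P8 table, and the column was identified from its place and its values. At matched background the ratio of peak number was 1.90 at Sox5 and 1.75 at Sox6, and that of the share was 1.39 and 1.27, an alternative chosen for these ratios after seeing the data.

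**Figure D1:**
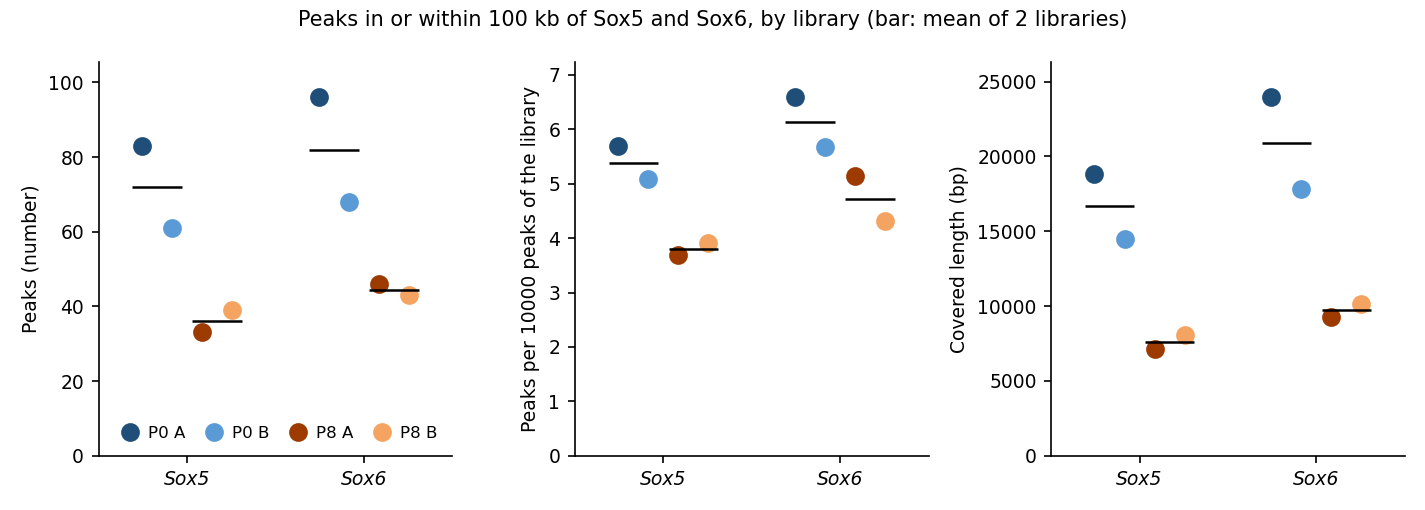
Number of peaks, peaks per 10000 peaks of the library and length covered by peaks (bp) in or within 100 kb of Sox5 and Sox6, with 1 point per library and a bar at the mean of the 2 libraries of a passage. At both genes and on all 3 scales the 2 P0 points lie above the 2 P8 points.

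At Sox5 the peaks covered 18855 and 14480 bp at P0, against 7161 and 8043 bp at P8, a ratio of 2.19 ± 0.44 (SD). At Sox6 they covered 23948 and 17809 bp at P0, against 9288 and 10147 bp at P8, a ratio of 2.15 ± 0.47. The covered length was thus lower at P8 in both libraries and at both genes (exact permutation test, p = 0.333). Over all peaks of the genome the ratio of peak number was 1.40. The median length of all peaks was 216 and 210 bp at P0, against 178 and 189 bp at P8. Peaks were thus more numerous and typically longer at P0 over the genome too, and the ratio of covered length over all peaks was not computed. At matched background the ratio was 2.13 at Sox5 and 2.10 at Sox6, an alternative also chosen after seeing the data. Kept peaks retained the length called at their full depth, so that any change of length with depth stayed in this ratio. The typical peak was short in each library. At Sox5 the median peak length was 175 and 192 bp at P0, against 163 and 140 bp at P8, and at Sox6 it was 209 and 217 bp, against 155 and 229 bp, where the groups overlapped. The median fold enrichment, which is the pileup of fragments at the summit of a peak over the local background of its library, went the other way at Sox5. It was 4.63 and 5.13 at P0, against 6.40 and 5.67 at P8, over different sets of peaks. At Sox6 it was 4.69 and 5.33 at P0, against 4.94 and 5.56 at P8, and the groups overlapped. Over all peaks of each library it was 5.38 and 5.87 at P0, against 5.44 and 5.67 at P8, which also overlapped.

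Merged sites showed where the P0 peaks without a P8 counterpart lay. At Sox5, 24 of 101 sites (23.8%) had a peak in all 4 libraries. Another 22 (21.8%) had a peak in P0 A and P0 B but not at P8, and 3 (2.97%) in P8 A and P8 B but not at P0. At Sox6, the same classes held 25 of 108 sites (23.1%), 26 sites (24.1%) and 3 sites (2.78%). Over all 172311 sites these classes took 32.4%, 17.0% and 1.84%. Both genes thus had a smaller share of sites held by all libraries and a larger share of sites of P0 than the genome as a whole, a difference that was not tested. The remaining sites were mostly peaks of a single library, 46 at Sox5 and 38 at Sox6. P0 library A, the deepest, held 29 of those at Sox5 and 28 of those at Sox6. Such sites were weak, with a fold enrichment from 3.19 to 6.06 at Sox5 and from 2.65 to 5.46 at Sox6.

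The classes depended on which libraries were asked for a peak. Without P0 library A the P0 class at Sox5 rose from 22 to 34 sites, and without P0 library B it rose to 52 at Sox5 and from 26 to 56 at Sox6, since a peak in a single library was then enough. The P8 class at Sox5 held 5 sites without P0 library A and 8 without P8 library A. At Sox6 the P8 class held 6 sites without P0 library B, 5 without P8 library A and 8 without P8 library B. Keeping only peaks that also passed at the lowest background of the 4 libraries left 20 sites in the P0 class at Sox5 and 25 at Sox6. The P8 class then held 3 sites at each gene. With equal numbers of peaks in every library the P0 class held 7 and 12 sites, and the P8 class 4 and 3. The shares over all sites of the genome were not computed under these settings, so the larger share of P0 sites was not compared there.

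Sites inside the gene and over 1 kb from its ends numbered 88 at Sox5 and 82 at Sox6. Of these, 19 (21.6%) at Sox5 and 20 (24.4%) at Sox6 were held by P0 A and P0 B but not at P8, against 18.7% of 76287 such sites in all protein-coding genes. Sites of all 4 libraries were 23 (26.1%) at Sox5 and 15 (18.3%) at Sox6, against 29.4%. Sites of both P8 libraries alone were 2 (2.27%) and 3 (3.66%), against 1.68%, and at each gene these were close neighbours, as given below. Outside the gene bodies lay 11 sites at Sox5 and 24 at Sox6, of which 1 and 8 were held by all 4 libraries. No site of either gene lay within 1 kb of the 3′ end.

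At the annotated 5′ end of Sox5 the peaks were weak and mostly of P0. A site 0.505 kb into the gene (chr6:144781642-144781922, 281 bp) had a fold enrichment of 4.52 in P0 library A and 5.18 in P0 library B and no peak at P8. A neighbour 0.249 kb into the gene (chr6:144781997-144782079) had a peak in P0 library A alone, at 4.51. A site just upstream of the annotated end (chr6:144782343-144782508) was held by P0 libraries A and B at 3.88 and 3.33 and by P8 library A at 4.94. P8 library B thus had no peak within 1 kb of the 5′ end of Sox5. The nearest peak to the RefSeq start window shown above lay 1675 bp from it, was 73 bp long and was called in P0 library A alone. Only 1 start window was annotated for Sox5, so that peaks at other starts of the gene could not be recognised. The site with the highest pileup of the locus in both P0 libraries (57 and 42) lay 573 kb into the gene (chr6:144209292-144209816). All 4 libraries held it, with a fold enrichment of 8.91 and 8.79 at P0 and 7.59 and 9.27 at P8.

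The 5′ end of Sox6, in contrast, was held by all 4 libraries. The site 0.52 kb into the gene (chr7:116039924-116040588, 665 bp) had a fold enrichment of 7.03 and 6.40 in the P0 libraries and 7.23 and 7.81 in the P8 libraries. Here both P8 values lay above both P0 values (log2 ratio of P0 over P8 of -0.16, exact permutation test, p = 0.333). Its summits lay between 384 and 417 bp downstream of the annotated end in the 4 libraries, and its peaks covered 591 and 366 bp at P0, against 270 and 366 bp at P8. Another site 1.05 kb into the gene (chr7:116039573-116039885) had values of 3.80 and 4.31 at P0 and 3.48 and 4.26 at P8, which overlapped (exact permutation test, p = 0.667). Sox6 start 1 lay 579 bp beyond it.

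The internal starts of Sox6 differed among themselves. The site at start 5, 216 kb into the gene (chr7:115824380-115824986, 607 bp), had a fold enrichment of 7.64 and 7.53 at P0 and 5.96 and 6.31 at P8. Both P0 values lay above both P8 values (log2 ratio of 0.31, exact permutation test, p = 0.333). Its summits fell within the printed window, at positions 197 and 200 in the P0 libraries and 212 and 177 in the P8 libraries, which is from 39 to 74 bp upstream of the start. The peaks covered 513 and 489 bp at P0, against 242 and 339 bp at P8. The site at start 2, 9.91 kb into the gene (chr7:116030724-116031009, 286 bp), overlapped the window by 12 bp and had values of 2.39 and 4.04 at P0 and no peak at P8. Its summits lay outside the window, 98 and 269 bp downstream of the start in P0 libraries A and B. Its pileups of 21 and 30 fragments were above the median of 16 and 15 of those libraries although its fold enrichment was low. Starts 3, 4 and 6 had no peak within 1 kb, and the nearest sites lay 5125, 1109 and 15983 bp away.

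The 3 strongest sites of each gene were picked among sites with a peak in all 4 libraries, so that each had a P8 peak by this choice. Sites of both P0 libraries without a P8 peak reached a mean fold enrichment of at most 7.84 at Sox5 and 7.08 at Sox6. At Sox5 the 3 strongest sites lay deep in the gene body. The site 512 kb from the 5′ end (chr6:144270342-144270817) had a fold enrichment of 13.2 and 11.0 at P0 and 10.9 and 12.5 at P8, and the groups overlapped. The site at 485 kb (chr6:144297074-144297684) had 11.9 and 11.2 at P0 and 10.2 and 12.2 at P8, which also overlapped. The site at 725 kb (chr6:144056469-144057545) was the longest of the locus at 1077 bp, with a fold enrichment of 11.8 and 12.1 at P0 and 10.2 and 10.0 at P8. Its peaks covered 1014 and 825 bp at P0 but 283 and 373 bp at P8, so that both height and length were lower in both P8 libraries. Choosing it as the longest favoured long P0 peaks, since P0 library A covered most of the merged site. The next longest sites, of 875 bp at 735 kb (chr6:144046420-144047294) and of 797 bp at 616 kb (chr6:144166121-144166917), had mean fold enrichments over the libraries of 6.03 and 9.21, with overlapping groups.

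At Sox6, the pair with the highest fold enrichment lay outside the gene, on the 5′ side. The site at chr7:116100110-116100593, inside 1110004F10Rik, had 14.9 and 16.9 at P0 and 15.3 and 13.3 at P8. The site at chr7:116092929-116093781, which covers start windows of 1110004F10Rik and 1700003G18Rik, had 14.7 and 15.6 at P0 and 13.3 and 13.4 at P8. The strongest site inside Sox6, 347 kb from its 5′ end (chr7:115693330-115693848), had 13.5 and 15.3 at P0 and 9.39 and 12.6 at P8, and both P0 values lay above both P8 values. A P0 site of 282 bp lay only 96 bp from it (chr7:115692952-115693233), with 6.54 and 5.58 at P0 and no P8 peak. The longest sites of the Sox6 body, picked by merged length, were lower and shorter at P8. At both, a P0 peak or peaks of P0 reached the full merged length, so that a shorter P8 length follows in part from this choice. The site 531 kb from the 5′ end (chr7:115509592-115510370, 779 bp, in a stretch shared with the lncRNA Gm51455) had a fold enrichment of 11.0 and 13.0 at P0 and 4.45 and 5.56 at P8, a log2 ratio of 1.26. Its peaks covered 779 and 682 bp at P0, against 180 and 232 bp at P8. The site at 355 kb (chr7:115685765-115686596, 832 bp) had 7.38 and 11.7 at P0 and 5.44 and 6.57 at P8, a log2 ratio of 0.66, and covered 697 and 832 bp against 222 and 90 bp.

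**Figure D2:**
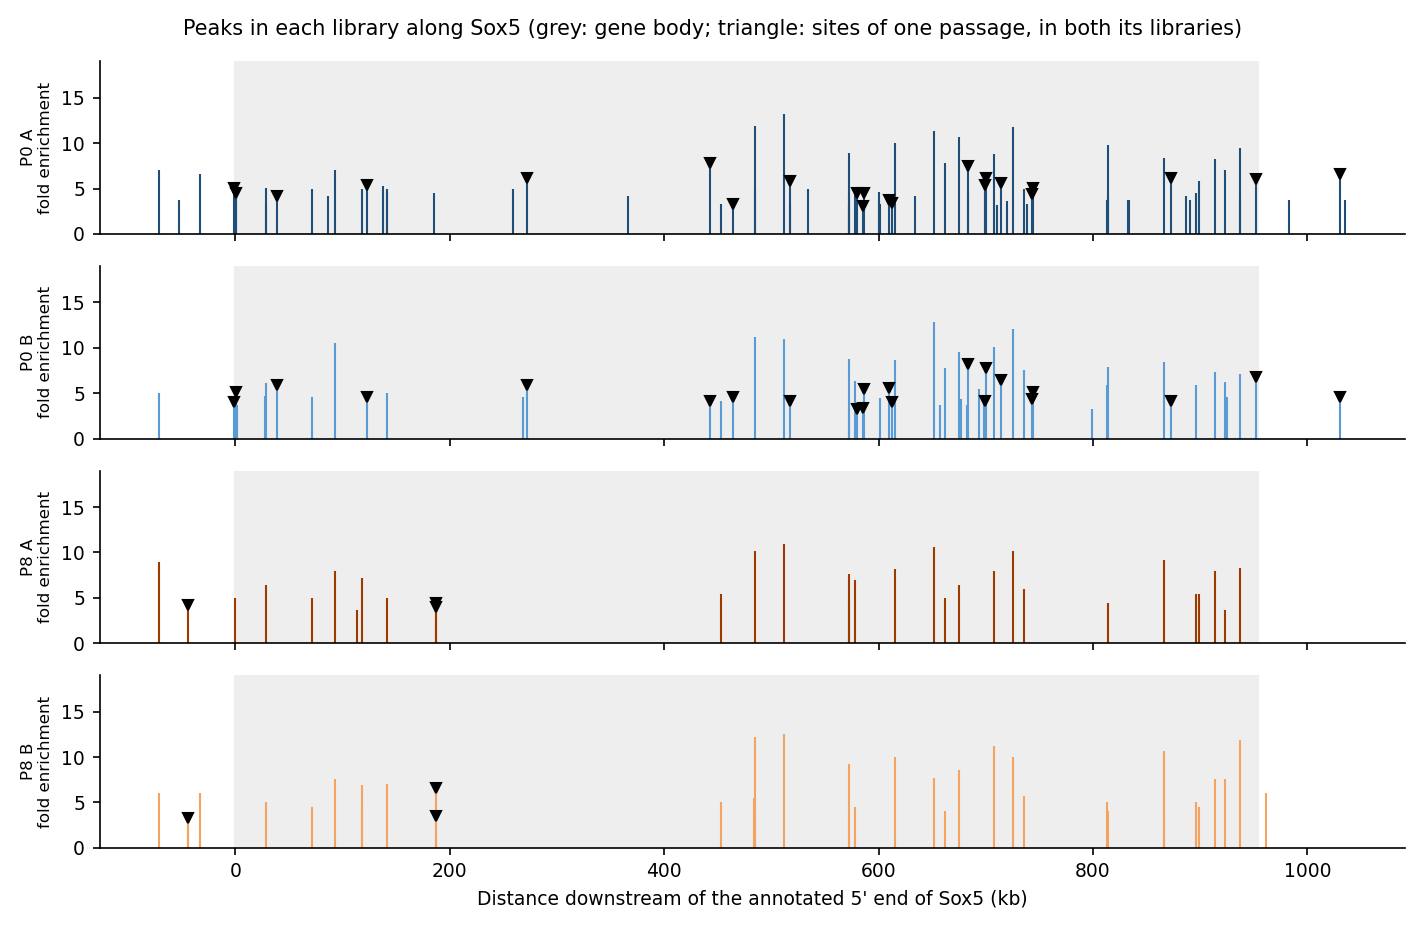
Fold enrichment of the peaks of each library (1 panel each) against distance downstream of the annotated 5′ end of Sox5 in kb, with the gene body in grey and triangles on sites held by both libraries of a passage and by neither of the other. P8 panels are empty between 187 and 453 kb, and the tall sites at 485, 512 and 725 kb stand in all 4 panels.

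Over all sites held by the 4 libraries, the ratio of fold enrichment between passages centred near equality at Sox5. The median over the 24 sites was 8.07 and 7.66 in the P0 libraries and 7.29 and 7.58 in the P8 libraries, and the median log2 ratio of P0 over P8 was 0.03, with a range from -0.50 to 1.06. The sign of that small median was not stable, since it was -0.09 when fold enrichment was computed at the lowest background of the 4 libraries. Both P0 values lay above both P8 values at 5 of 24 sites (20.8%), against 49.9% of 55890 such sites in the genome, and both P8 values lay above at 2 sites (8.33%), against 11.6%. The remaining 17 overlapped. At Sox6 the medians over the 25 sites were 7.38 and 7.32 at P0 and 5.67 and 6.31 at P8, with a median log2 ratio of 0.19 and a range from -0.39 to 1.26. Computed at the lowest background, an alternative chosen after seeing the data, that ratio fell to 0.09. The median log2 ratio over all 55890 such sites, as called, was 0.20. At Sox6, P0 lay above P8 at 13 of 25 sites (52.0%) and P8 above P0 at 4 (16.0%), near the shares of the genome. The medians per library did not overlap between passages at either gene (exact permutation test, p = 0.333 each). Those over all 55890 such sites did not overlap either, at 8.28 and 8.08 for P0 and 6.43 and 7.15 for P8. At Sox5 the medians overlapped when fold enrichment was divided by the library median. They also overlapped there when only peaks above the median −log10 q were used. The difference between Sox5 and Sox6 was not tested.

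**Figure D3:**
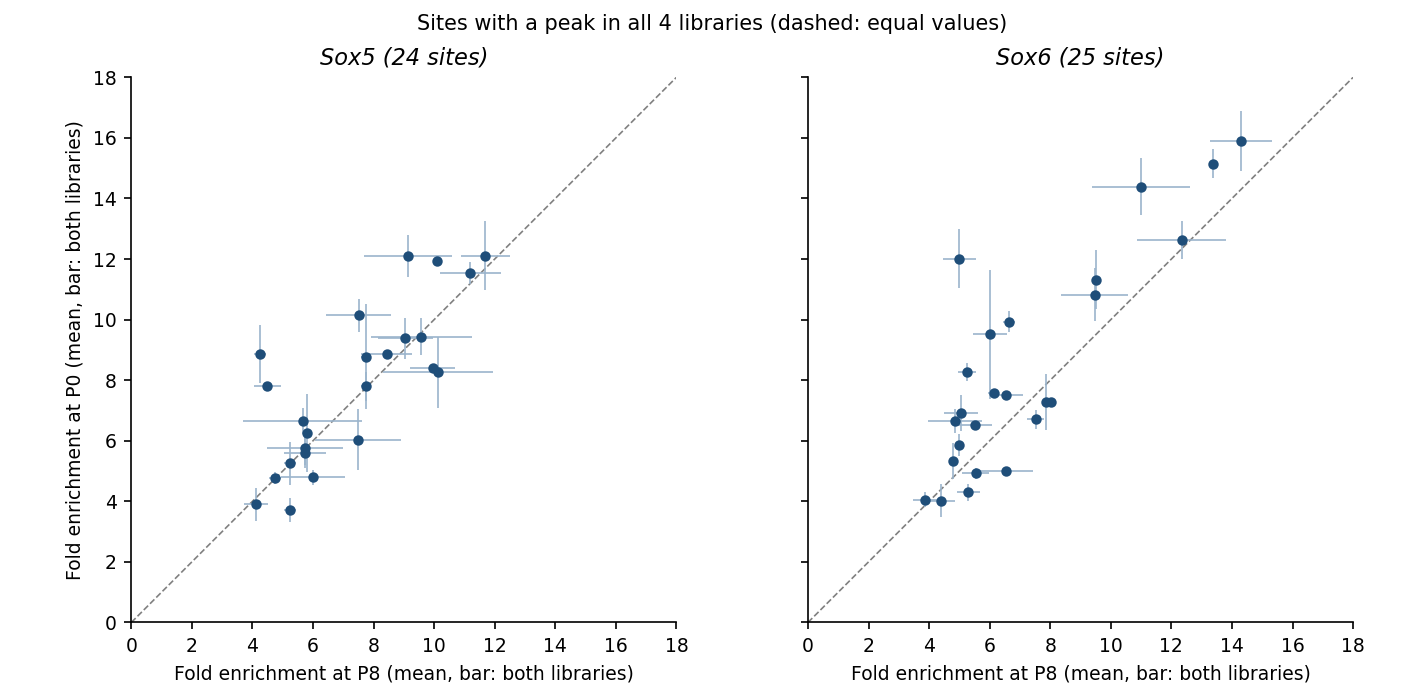
Mean fold enrichment at P0 against that at P8 for the 24 sites of Sox5 and the 25 of Sox6 with a peak in all 4 libraries, with bars reaching both libraries of a passage and a dashed line at equal values. At Sox5 most sites lie along the line, with log2 ratios up to 1.06, while at Sox6 13 sites lie above it without overlap.

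Single sites departed from those medians, named here after their values were seen. At Sox5 the site 814 kb from the 5′ end (chr6:143968017-143968528) had 9.81 and 7.91 at P0 and 4.45 and 4.04 at P8, a log2 ratio of 1.06, and that at 662 kb (chr6:144120044-144120333) had 7.86 and 7.78 against 4.94 and 4.04. The other direction was held by the site at 453 kb (chr6:144329335-144329642), with 3.31 and 4.12 at P0 and 5.44 and 5.05 at P8, a log2 ratio of -0.50. At Sox6 the site at 416 kb (chr7:115624796-115625325) had 4.99 and 5.03 at P0 and 5.67 and 7.44 at P8, a log2 ratio of -0.39.

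By their medians, peaks at the shared sites were shorter at P8, as they were over the genome. The median length covered by peaks at the 24 sites of Sox5 was 406.5 and 357 bp for P0, against 229 and 261 bp for P8. At the 25 sites of Sox6 it was 460.0 and 366 bp for P0, against 242 and 289 bp for P8. Over all 55890 such sites it was 413 and 359 bp for P0, against 263 and 303 bp for P8. Both P0 peaks were longer than both P8 peaks at 14 of 24 sites of Sox5 (58.3%) and 13 of 25 of Sox6 (52.0%), against 58.4% in the genome. The reverse held at 0 sites of either gene, against 5.48%. The 4 summits of a site spread over a median of 94 bp at Sox5 and 63 bp at Sox6, against 62 bp for the genome, and they lay within 50 bp of each other at 3 of 24 sites of Sox5 (12.5%) and at 11 of 25 of Sox6 (44.0%), against 43.2%, a difference between the genes that was not tested.

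**Figure D4:**
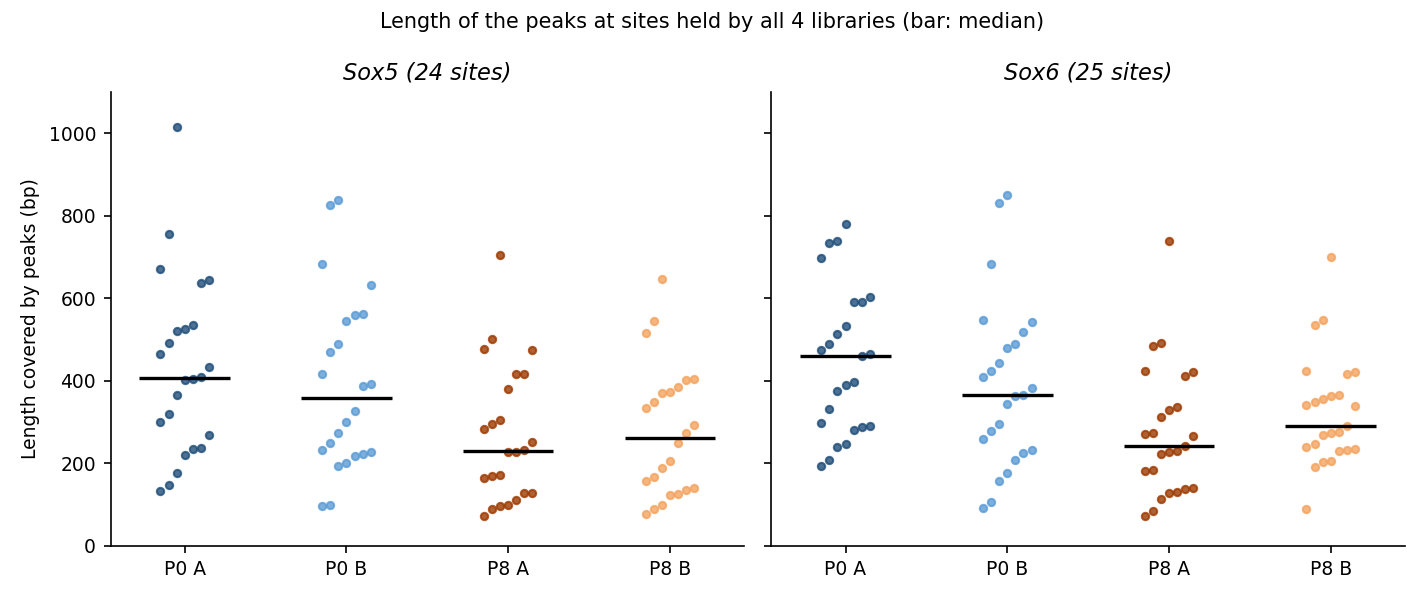
Length in bp covered by the peaks of each library at the sites held by all 4 libraries, 1 point per site, with a bar at the median. The medians of the P0 libraries, from 357 to 460.0 bp, lie above those of the P8 libraries, from 229 to 289 bp, at both genes.

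The sites of both P0 libraries without a P8 peak were of moderate height. Their mean fold enrichment ranged from 3.26 to 7.84 at Sox5 and from 3.22 to 7.08 at Sox6, with median lengths of 238 and 275 bp. The strongest at Sox5 lay 684 kb from the 5′ end (chr6:144098229-144098513, 285 bp), with 7.45 in P0 library A and 8.24 in P0 library B. It was followed by the sites at 700 kb (chr6:144082270-144082575) with 6.21 and 7.78, at 952 kb (chr6:143830089-143830414) with 6.03 and 6.74, at 272 kb (chr6:144510155-144510479) with 6.21 and 5.95, and at 715 kb (chr6:144067657-144067845) with 5.65 and 6.41. Of these 5 sites, 3 lay between 684 and 715 kb, at the edge of the stretch from 600 to 700 kb, which held 21 sites, the most of any 100 kb of the gene. At Sox6 the strongest lay 410 kb from the 5′ end (chr7:115630757-115630992, 236 bp), with 6.38 and 7.78. The next were at 98.7 kb (chr7:115941936-115942220) with 4.55 and 8.24, in the 3′ flank (chr7:115450262-115450716) with 5.84 and 6.69, and inside Plekha7 (chr7:116123830-116124116) with 7.26 and 4.91, and the last of the 5 was the neighbour of the 347 kb site given above.

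Sites of both P8 libraries without a P0 peak were few and clustered. At Sox5, 2 of the 3 stood side by side 187 kb from the 5′ end, 124 bp apart. The first (chr6:144595031-144595307, 277 bp) had a fold enrichment of 4.45 and 6.57 in the P8 libraries, and the second (chr6:144595432-144595559, 128 bp) had 3.96 and 3.54. The remaining one, in the 5′ flank within the pseudogene Gm20124 (chr6:144826467-144826590), had 4.21 and 3.31. At Sox6 all 3 lay in a row 222 kb from the 5′ end. They were chr7:115817842-115818028 with 4.55 and 3.54, chr7:115818093-115818486 with 4.63 and 4.40, and chr7:115818582-115818848 with 5.43 and 4.86. Gaps of 64 and 95 bp separated them, and 5531 bp lay between the last and the site at Sox6 start 5, where fold enrichment was higher at P0. With pileups from 6 to 13 fragments, these P8 sites rested on few fragments.

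Along both genes the sites were denser toward the 3′ end. Of the 90 gene-body sites of Sox5, 63 lay in the 477 kb nearest the 3′ end, and of the 84 of Sox6, 55 lay in the 285 kb nearest the 3′ end. The sites of both P0 libraries alone followed, with 14 of 20 at Sox5 and 13 of 20 at Sox6 in that part. All gene-body sites of both P8 libraries alone, 2 at Sox5 and 3 at Sox6, lay in the other part, nearer the 5′ end. At each gene they were neighbours with gaps of at most 124 bp, so that their places are not independent. The P8 libraries left long stretches without a peak. At Sox5 neither had a peak between 187 and 453 kb from the 5′ end, a gap of 265 kb in which the P0 libraries held 5 sites. Of these, 2 were held by both P0 libraries, the 272 kb site given above and a site at 443 kb (chr6:144339123-144339302) with 7.86 and 4.12. The longest stretch without a P0 peak in Sox5 was 94.0 kb. At Sox6 the longest stretch without a P8 peak was 92.1 kb, between 104 and 196 kb, with 6 sites of the P0 libraries inside, and that without a P0 peak was 59.4 kb, between 216 and 276 kb, with 4 sites of the P8 libraries inside, the row of 3 among them.

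**Figure D5:**
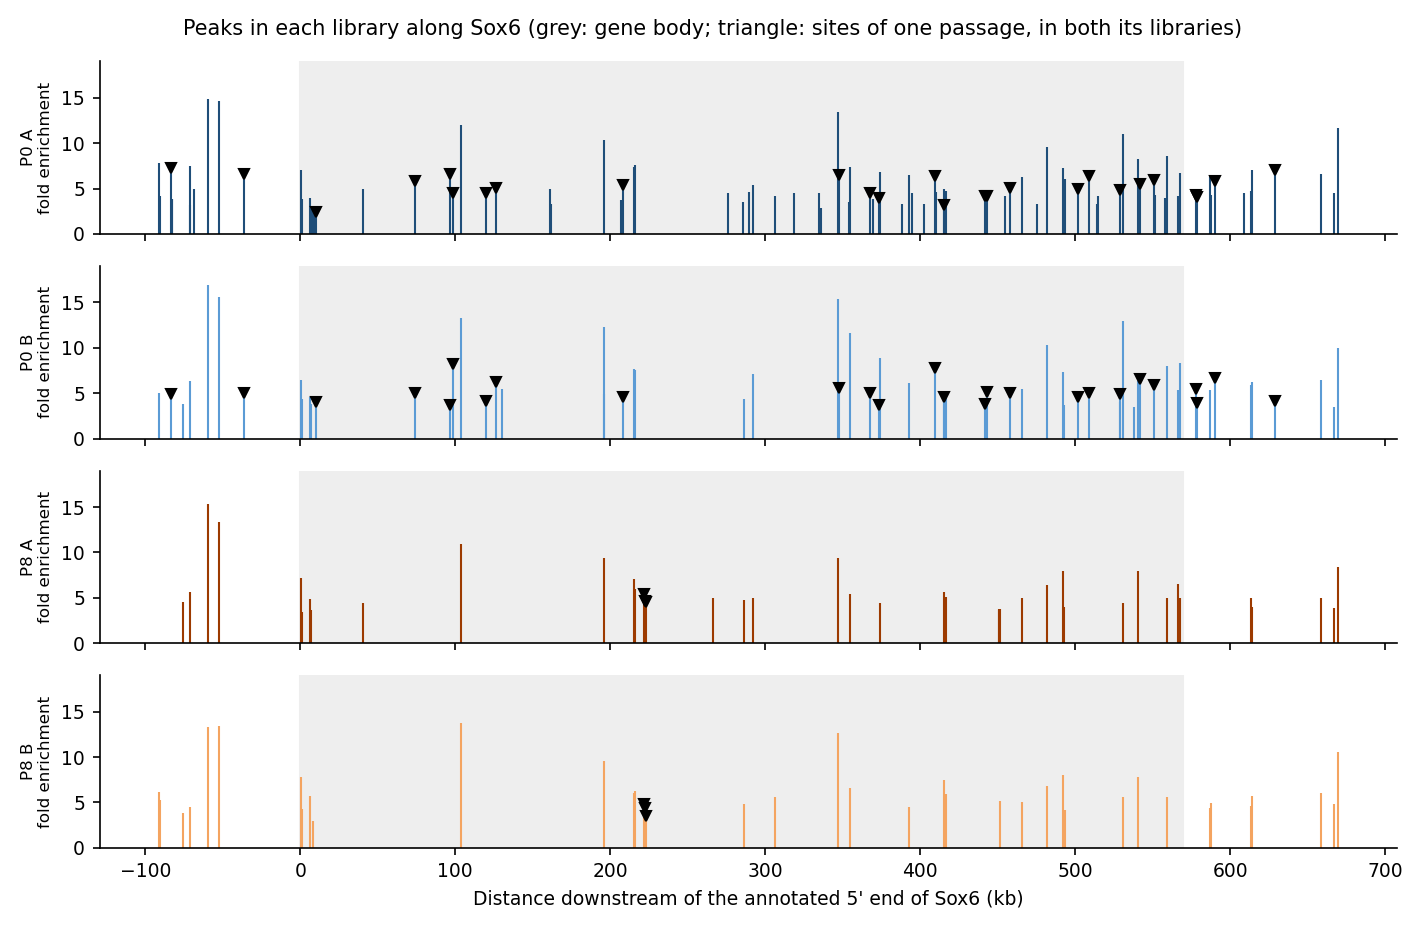
Fold enrichment of the peaks of each library (1 panel each) against distance downstream of the annotated 5′ end of Sox6 in kb, with the gene body in grey and triangles on sites held by both libraries of a passage and by neither of the other. The P8 triangles all stand at 222 kb, and the 5′ end carries a peak in all 4 panels.

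The 100 kb limit did not fall at a break in the signal. On the 5′ side of Sox5 the last site inside, 71.1 kb from the gene, had 7.04 and 5.03 at P0 and 8.90 and 6.06 at P8, and the first outside, at 108 kb, had 10.9 and 9.91 against 5.44 and 7.58. On its 3′ side both the last inside, at 81.6 kb, and the first outside, at 114 kb, had a peak in P0 library A alone, of 3.73 and 3.31. On the 5′ side of Sox6 the last inside, at 91.3 kb, had 7.86 and 5.03 at P0 and 6.18 in P8 library B, and the first outside, at 113 kb, had 14.8 and 14.4 against 6.46 and 8.46. On the 3′ side of Sox6 the last inside, at 99.2 kb, had 11.7 and 9.96 against 8.37 and 10.6, and the first outside, at 119 kb, had a peak at P8 only, of 4.45 and 4.55.

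Sox5 held 8.75 sites per 100 kb of its window and Sox6 held 14.0, around a median of 9.81 over 21887 protein-coding genes. The genes whose sites were spread most alike over the 4 libraries were sought among protein-coding genes with at least 51 (799 genes) or 54 (585 genes) sites, by the distance between the 4 percentages of sites that held a peak in each library. For Sox5 these percentages were 80.2 and 58.4% in the P0 libraries and 30.7 and 36.6% in the P8 libraries, and the nearest 5 genes were Tenm3, Wdr35, Fat3, Col11a1 and Robo2, at distances from 4.91 to 7.04 percentage points. For Sox6 they were 85.2 and 61.1% at P0 and 38.0 and 37.0% at P8, and the nearest were Wwox, Camta1, Cdk6, Kcnq1 and Tshz2, at 1.53 to 5.46 points. Sox5 and Sox6 lay 9.23 points from each other, where Sox6 took rank 25 among the genes compared with Sox5.

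Sox9, the related genes Sox8, Sox10 and Sox13, and genes of the cartilage matrix and its making, 17 in all, were described in the same way. Sites of both P0 libraries without a P8 peak outnumbered those of both P8 libraries without a P0 peak at 17 of 17, and they took a larger share than the 17.0% of the genome at 13 of 17. Among the 9745 protein-coding genes with at least 26 sites, the fewest of the list, the first held at 96.0% and the second at 35.5%, so that the first count lay near the background. The median share was 20.0%, close to the 21.8% of Sox5 and 24.1% of Sox6. Sox9, the partner of both, held 7 such sites of 26 (26.9%), and Sox13, the third SoxD gene, held 5 of 29 (17.2%). Among the cartilage genes, Hapln1, the link protein that ties aggrecan to hyaluronan, had the largest share, with 15 of 35 sites (42.9%). Col2a1, the main cartilage collagen, had 11 of 46 (23.9%), Acan, the core protein of aggrecan, had 9 of 65 (13.8%), and Col9a3, a chain of collagen IX, had 3 of 37 (8.11%). Within 1 kb of a gene end, 14 of the 17 genes had a peak in all 4 libraries, as Sox6 did at its 5′ end, and 2 had a peak in each P0 library but not at P8, Sox10 and Matn1. Over all 21900 protein-coding genes these shares were 58.1% and 3.97%.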

How the data were processed

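ATAC-seq had been performed on 2 P0 and 2 P8 libraries of mouse chondrocytes. The authors aligned 50 bp paired-end reads with Bowtie2 (mm10 in the submitters' processing notes, versions not given in the sources used here) and called peaks with MACS2 at default parameters in each library apart. Each peak was deposited with its limits, its pileup (a signal in fragments at the summit, unscaled), its fold enrichment (a ratio to local background within the library) and its p-value and q-value as −log10. In each passage's table a spreadsheet error had replaced a header, that of −log10 p at P0 and of −log10 q at P8, and these columns were identified from place and values. The column taken as −log10 q never exceeded −log10 p and never fell as −log10 p rose in 4 of 4 libraries. A last table gives log2 fold changes, p-values and FDR from the authors' own comparison of the passages, and it was not used. Columns of per-library values that were not used numbered 0.

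The prefix of the peak name separated the libraries. Peaks in or within 100 kb of Sox5 and Sox6 (RefSeq gene table of GRCm38.p6) were merged over libraries at an overlap of at least 1 bp, and within a site the highest peak of a library gave its fold enrichment. The local background was computed from pileup and fold enrichment. It gave back 100% of the deposited −log10 p-values to within 0.01, and its lowest level served for matched backgrounds. Peak number, share, covered length and fold enrichment were compared over libraries by an exact permutation test (two-sided), and classes of sites were described beside those of all sites. Sites named were those at annotated starts, the 3 strongest of all libraries, the 5 strongest of each passage and the 3 longest, and genes named were a list of 17 other Sox and cartilage genes, marker lists and the 5 genes most alike. Other named sites were chosen after their values were seen. The members, lists and tests were chosen with earlier results of these data known. The steps were tested on simulated peaks. Scripts ran under Python 3.11.15 with pandas 2.3.3, numpy 2.4.6, matplotlib 3.10.9 and scipy 1.17.1.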

Additional observations from a re-analysis of the deposited data

How the results depend on the processing

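Of 138 alternative values over 14 results, 118 kept the direction of a ratio or stayed within 1.5 times a count, 18 counts moved further and 2 ratios reversed. A kept direction does not mean a kept size, since equal numbers of peaks in every library took the ratio of peak number from 2.00 to 1.17 at Sox5 and from 1.84 to 1.23 at Sox6. The reversals were the ratio of peaks per 10000 at Sox5 among peaks above the median −log10 q, 0.935, and the median log2 fold enrichment ratio at Sox5 at the lowest background, -0.085, an alternative chosen after seeing the data. Peaks above the median −log10 q gave 5 and 8 sites of both P0 libraries alone at Sox5 and Sox6, 1 and 0 of both P8 libraries alone, and 12 and 13 of all libraries. Equal numbers of peaks in every library gave 7 and 12 sites of both P0 libraries alone, and a reciprocal overlap of 50% gave 10 and 10 sites of all libraries. Fewer peaks enter under the first pair of these alternatives by construction. The last dropped each peak shorter than 50% of its merged site. Its number of sites of all libraries could therefore not rise. Leaving out each library in turn gave from 23 to 52 P0 sites and from 3 to 8 P8 sites at Sox5, and from 29 to 56 and from 3 to 8 at Sox6. It gave from 24 to 26 sites of all libraries at Sox5 and from 25 to 30 at Sox6. The ratio of peak number ranged from 1.69 to 2.31 at Sox5 and from 1.53 to 2.16 at Sox6, and that of peaks per 10000 from 1.34 to 1.50 and from 1.19 to 1.42. The ratio of covered length ranged from 1.90 to 2.48 at Sox5 and from 1.83 to 2.46 at Sox6, and the median log2 fold enrichment ratio from 0.04 to 0.07 and from 0.13 to 0.23.

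No paired analysis was possible because the peak names carry no replicate number of the labels. Depth limits what absence of a peak shows, and P0 library A was the deepest of the 4.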
